A study of Mus musculus with 18 samples.

Results

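The 10 genes described here respond to glucocorticoid hormones, to fasting or to both: *Fkbp5*, *Tsc22d3*, *Sgk1*, *Zbtb16*, *Klf9*, *Mt1*, *Mt2*, *Pdk4*, *Depp1* and *Cdkn1a*. They were taken by symbol from 55453 gene symbols in the 2 count tables, and were chosen with their measured differences between mutant and wild-type aortae already known, so those differences are given as descriptions without a test. All 10 passed the filter on low counts in both experiments. Bulk RNA-seq measured polyadenylated transcripts of individual mouse aortae in 18 libraries. In the HDR experiment, Cas9 with a single guide RNA and a repair template had replaced 3 bases of the CArG box in the *Tspan2* promoter, a binding sequence of serum response factor, and 5 homozygous *Tspan2* sg/sg aortae were compared with 5 wild-type (WT) aortae. In the PE2 experiment, prime editing, in which a nicking Cas9 joined to a reverse transcriptase writes the edit from its own guide, had changed a single base of the same box, and 4 homozygous *Tspan2* peg/peg aortae were compared with 4 WT aortae.

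The HDR mice were 12 weeks old and labelled C57BL/6, and each genotype had 3 females and 2 males. The PE2 mice were 8 weeks old, and their labelled background was FVB/N/B6(Cg)-Tyrc-2J/J. They were 3 female and 1 male WT and 4 female *Tspan2* peg/peg mice. Per the methods, zygotes of the same strains, with FVB/NJ mothers, were used for both edits and founders of both were crossed to C57BL/6J. The HDR label thus leaves out the FVB/NJ part, and the PE2 label the cross to C57BL/6J. Age, labelled strain, edit and depth all differed between the experiments, so differences in level between them cannot be told apart from any of these. The edit was germline and was present in every cell of the mutants, and the labels name no agent. The labels and methods read here give neither the hour of dissection nor the feeding state. The replicates are individual aortae of separate mice, cleaned of the tissue around them per the methods.

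Glucocorticoids enter cells and bind the glucocorticoid receptor, a transcription factor encoded by *Nr3c1*, which then moves to the nucleus and activates genes that carry or lie near its response elements. In fasting, glucocorticoids rise and insulin falls, forkhead factors of the FoxO family become active, and tissues shift from glucose to fatty acid oxidation. Blood glucocorticoid follows a daily rhythm and rises with handling and stress, and the vessel wall, its endothelium and the fat around it all express the receptor.

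The genotype labels were checked on the edited gene. *Tspan2*, a tetraspanin of smooth muscle, measured 209 ± 60.1 CPM (counts relative to the TMM-scaled library total, mean ± SD) in HDR WT and 24.9 ± 8.12 CPM in *Tspan2* sg/sg aortae (n = 5 each, 88.1% lower, exact two-sided permutation test p = 0.00794). In the PE2 experiment it measured 218 ± 45.1 CPM in WT and 20.0 ± 6.74 CPM in *Tspan2* peg/peg aortae (n = 4 each, 90.8% lower, exact two-sided permutation test p = 0.0286). Both p-values are the smallest their design allows. No mutant library reached the level of any WT library.

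HDR libraries held 17290992 to 24880385 counts each, and PE2 libraries 38820265 to 44895615. The tissue label was checked against 8 smooth muscle markers, whose summed level was 17130 to 63770 CPM over all libraries, and no marker of any of the 8 cell type lists was at 0 in a whole group. A pair of libraries stood apart in the makeup of the tissue. *Tspan2* peg/peg library 3 had the lowest summed level of 7 brown fat markers (11.9 CPM, against 495 to 1743 CPM in the other 3 of its group) and of 8 white fat markers (1074 CPM). The same library had the highest summed level of 10 skeletal muscle markers (1156 CPM, with a group median of 18.2 CPM) and of 8 cardiac muscle markers (1133 CPM). Its summed level of 6 endothelial markers was the lowest of all libraries (541 CPM, with a group median of 1598 CPM). HDR WT library 6 had the highest white fat sum of all libraries (8761 CPM). HDR libraries are numbered here from 2 to 6 as their columns are, and these numbers are not those of the labels. Values of single libraries are given in the order of these numbers, and from 1 to 4 in PE2.

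Positions are on GRCm38, of genes from Gencode M21 and of promoters from RefSeq. Promoters of *Sgk1*, *Mt1*, *Mt2* and *Klf9* are shown, as examples of windows that hold a full receptor, metal or forkhead element. RefSeq promoter windows (250 bases before and 50 after a transcription start, GRCm38.p6) were at hand for 9 of the 10 members, 17 windows in all, and *Zbtb16* had no entry. The full glucocorticoid response element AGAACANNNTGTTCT was searched on both strands (it is its own reverse complement) and occurred in 3 of 32851 windows (0.00913%), of which 1 belongs to *Sgk1*. It begins at -189 from the start site in that window (chr10:21993640-21993939, + strand), 1 of several annotated *Sgk1* promoters, and is in capitals:
Sgk1: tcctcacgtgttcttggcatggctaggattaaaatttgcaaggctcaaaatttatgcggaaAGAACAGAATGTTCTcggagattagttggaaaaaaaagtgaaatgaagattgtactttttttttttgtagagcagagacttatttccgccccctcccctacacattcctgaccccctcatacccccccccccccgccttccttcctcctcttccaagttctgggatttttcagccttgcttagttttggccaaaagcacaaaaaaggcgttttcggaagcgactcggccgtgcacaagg
The 6-base arm TGTTCT, part of the full element, was searched in either direction and occurred in 19.0% of all windows and, among members, in those of *Sgk1* and *Tsc22d3*. The metal response element, bound by the zinc sensor Mtf1, was searched as TGCACNC (12.6% of windows) and TGCGCNC (15.4%) on both strands. TGCGCNC alone was in another *Sgk1* window (chr10:21994416-21994715, + strand), which is not shown. Both forms lay in the windows of *Mt1* (chr8:94178839-94179138, + strand) and *Mt2* (chr8:94172368-94172667, + strand), neighbours on chromosome 8, where they are in capitals:
Mt1: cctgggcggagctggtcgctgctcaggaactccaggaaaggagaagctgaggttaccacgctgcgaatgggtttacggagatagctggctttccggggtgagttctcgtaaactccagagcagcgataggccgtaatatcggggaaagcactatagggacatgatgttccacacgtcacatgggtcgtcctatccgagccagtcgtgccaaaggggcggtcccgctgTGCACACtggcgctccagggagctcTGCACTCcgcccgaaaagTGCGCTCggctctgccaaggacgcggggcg
Mt2: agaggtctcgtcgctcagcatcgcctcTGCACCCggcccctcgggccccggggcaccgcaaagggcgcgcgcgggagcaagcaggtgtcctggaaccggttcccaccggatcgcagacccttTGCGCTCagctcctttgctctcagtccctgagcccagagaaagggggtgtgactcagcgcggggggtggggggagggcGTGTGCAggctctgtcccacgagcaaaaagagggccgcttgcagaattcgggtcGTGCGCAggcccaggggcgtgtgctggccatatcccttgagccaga
The forkhead element GTAAACA, the sequence that FoxO factors recognise, occurred on either strand in 3.65% of windows and among members in *Klf9* alone (chr19:23140976-23141275, + strand), where it begins at -100 and is in capitals:
Klf9: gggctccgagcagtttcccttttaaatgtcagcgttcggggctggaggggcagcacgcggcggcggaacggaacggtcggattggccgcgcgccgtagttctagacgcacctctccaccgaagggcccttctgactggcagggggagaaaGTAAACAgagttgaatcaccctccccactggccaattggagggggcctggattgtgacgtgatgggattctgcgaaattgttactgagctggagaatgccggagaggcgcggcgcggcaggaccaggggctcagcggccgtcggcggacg
The CArG box, the element edited in *Tspan2*, was in 1.63% of windows and in 0 of the 17 windows of members. The E-box CACGTG, read by circadian factors, was in 7.15% of windows and, among members, in those of *Fkbp5* and *Sgk1*. A match describes the letters of a window and not a bound site.

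In PE2 aorta, 8 of the 10 genes had a higher mean in *Tspan2* peg/peg than in WT on the log2 scale, where 52.2% of all 16401 genes tested did, and their median log2 fold change was 0.39 against 0.01 over all genes. In HDR aorta, 6 of 10 were above 0, where 50.9% of 16423 genes were, with a median of 0.06 against 0.00. No member was called at an adjusted p under 0.05 by edgeR in either experiment (background 0.0061% of PE2 and 0.00609% of HDR genes, in each case *Tspan2* alone). At an unadjusted p under 0.05, 2 of 10 members were higher in PE2 (background 3.04%) and 0 in HDR (background 0.353%). DESeq2 called 2 of 10 in PE2, *Tsc22d3* and *Depp1* (background 0.189%), and 0 in HDR (background 0.00933%). Since the members were picked from these contrasts, nothing is read from the counts. Without *Tspan2* peg/peg library 2 the PE2 median was 0.08, and without HDR WT library 6 the HDR median was 0.33. Over all settings the HDR log2 fold change ran from -0.37 to 0.23 for *Tsc22d3*, from -0.14 to 0.395 for *Sgk1*, from -0.16 to 0.38 for *Zbtb16* and up to 0.41 for *Mt1* and 0.43 for *Mt2*.

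**Figure D1:**
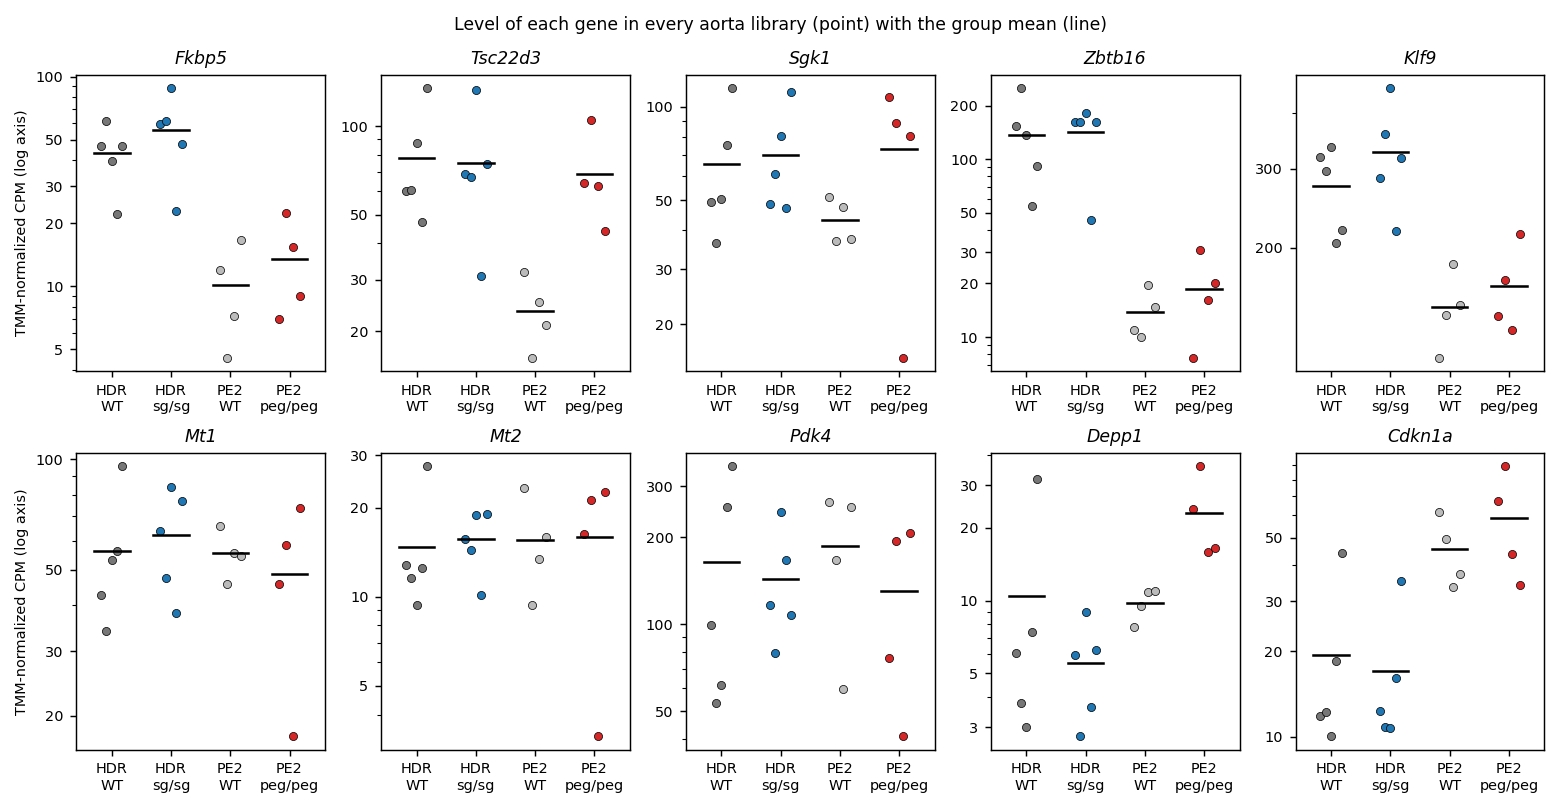
TMM-normalized CPM of the 10 genes on log axes, 1 point per aorta library and a line at each group mean, for 5 HDR WT, 5 HDR sg/sg, 4 PE2 WT and 4 PE2 peg/peg libraries. The PE2 genotypes do not overlap for *Tsc22d3* and *Depp1*, and the HDR genotypes overlap for all 10 genes.

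*Tsc22d3* (chrX:140539528-140600659, - strand) encodes GILZ, a leucine zipper protein that is induced directly by the glucocorticoid receptor and restrains inflammatory signalling. In PE2 WT libraries 1 to 4 it measured 31.8, 16.3, 25.2 and 21.0 CPM, and in *Tspan2* peg/peg libraries 1 to 4 it measured 63.9, 105, 62.5 and 43.8 CPM. Every *Tspan2* peg/peg library lay above every WT library. This held for 2 of 10 members, *Tsc22d3* and *Depp1* (background 1.43%), the reverse held for 0 (background 1.1%), and in HDR neither direction held for any member (background 0.122% higher and 0.195% lower). The log2 fold change was 1.55 (SE 0.30), a 2.92-fold difference, and it ran from 1.26 to 1.72 over all alternative settings and left-out libraries. In HDR aorta the WT libraries measured 60.2, 60.6, 87.5, 47.0 and 135 CPM and the *Tspan2* sg/sg libraries 68.5, 67.3, 133, 30.9 and 74.2 CPM. These groups overlapped over nearly their whole range, with a log2 fold change of -0.06 (SE 0.36). The PE2 WT libraries were thus the lowest of the 4 groups, at a mean of 23.6 ± 6.61 CPM, while the *Tspan2* peg/peg mean of 68.9 ± 25.9 CPM lay near the HDR means of 78.0 ± 34.9 and 74.8 ± 36.8 CPM.

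*Sgk1* (chr10:21882184-21999903, + strand), a kinase that promotes sodium uptake and is induced by glucocorticoids and by serum, carries the full response element shown above. In PE2 WT it measured 51.2, 37.0, 47.5 and 37.5 CPM. In *Tspan2* peg/peg it measured 107, 88.4, 15.6 and 80.7 CPM, so 3 libraries lay above all WT libraries and library 3 lay below them all. The log2 fold change was 0.75 (SE 0.49) with all libraries and 1.08 without library 3, the library with the low fat and high striated muscle markers. In HDR aorta *Sgk1* ranged from 36.5 to 115 CPM in WT and from 47.3 to 112 CPM in *Tspan2* sg/sg, with a log2 fold change of 0.09 (SE 0.32).

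*Fkbp5* (chr17:28399094-28517527, - strand) encodes a co-chaperone that binds the receptor complex and lowers its affinity for hormone, and its induction is a widely used readout of receptor activity. In HDR aorta it measured 46.5, 61.2, 39.4, 22.1 and 46.7 CPM in WT and 59.1, 61.3, 88.1, 22.8 and 47.7 CPM in *Tspan2* sg/sg. In PE2 aorta it measured 11.9, 4.56, 7.21 and 16.7 CPM in WT and 7.0, 22.4, 15.4 and 8.97 CPM in *Tspan2* peg/peg. The genotypes overlapped in both experiments, with log2 fold changes of 0.37 (SE 0.32) in HDR and 0.41 (SE 0.48) in PE2, and the PE2 value was 0.04 without *Tspan2* peg/peg library 2, 0.76 without WT library 4, the only male, and 0.77 with sex as a covariate. The spread within a genotype, 3.66-fold from lowest to highest in PE2 WT, exceeded the difference between genotypes.

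*Zbtb16* (chr9:48654297-48836222, - strand) encodes PLZF, a zinc finger repressor that glucocorticoids induce strongly in many cells. It measured 154, 251, 136, 54.5 and 91.9 CPM in HDR WT and 162, 161, 181, 45.6 and 162 CPM in *Tspan2* sg/sg, where library 5 was far below the other 4. In PE2 aorta it measured 11, 9.97, 19.7 and 14.8 CPM in WT and 7.63, 30.9, 16.1 and 20.1 CPM in *Tspan2* peg/peg. The log2 fold changes were 0.05 (SE 0.41) in HDR and 0.43 (SE 0.40) in PE2, the latter being 0.07 without *Tspan2* peg/peg library 2, and the genotypes overlapped in both. *Klf9* (chr19:23141226-23168134, + strand), a Krüppel-like factor induced by glucocorticoids and thyroid hormone, had the narrowest spread of the 10 in HDR WT, from 205 to 335 CPM, with 218 to 454 CPM in *Tspan2* sg/sg. In PE2 it ran from 114 to 184 CPM in WT and from 131 to 214 CPM in *Tspan2* peg/peg. Its log2 fold changes were 0.25 (SE 0.20) and 0.16 (SE 0.20), the second being -0.01 without *Tspan2* peg/peg library 4.

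*Mt1* (chr8:94179082-94180327, + strand) and *Mt2* (chr8:94172664-94173568, + strand) encode metallothioneins, small cysteine-rich proteins that bind zinc and copper and are induced by metals and by glucocorticoids. *Mt1* measured 42.7, 34.0, 53.3, 56.1 and 95.6 CPM in HDR WT and 63.6, 47.4, 83.9, 38.1 and 76.9 CPM in *Tspan2* sg/sg. In PE2 it measured 65.6, 45.8, 55.7 and 54.5 CPM in WT and 45.6, 58.2, 17.6 and 73.6 CPM in *Tspan2* peg/peg. *Tspan2* peg/peg library 3 was the lowest of all 18 for both genes, at 17.6 CPM for *Mt1* and 3.38 CPM for *Mt2*. The log2 fold changes of *Mt1* were 0.14 (SE 0.28) in HDR and -0.18 (SE 0.37) in PE2, and those of *Mt2* were 0.08 (SE 0.28) and 0.03 (SE 0.53). Without library 3 the PE2 values were 0.09 for *Mt1* and 0.36 for *Mt2*. Of the 588 exon bases of *Mt2*, 432 are overlapped on the other strand by Gm45774, to which 33 counts in all HDR and 5 in all PE2 libraries were assigned. The strand setting of the counting is not given in the sources used here, so sense and antisense reads there cannot be told apart.

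*Pdk4* (chr6:5483351-5496309, - strand), a mitochondrial kinase that switches off pyruvate dehydrogenase and so spares glucose in fasting, ranged widely within each group. It measured 99.3, 53.2, 61.3, 254 and 352 CPM in HDR WT and 116, 79.7, 244, 167 and 108 CPM in *Tspan2* sg/sg. In PE2 it measured 264, 167, 59.5 and 255 CPM in WT and 76.5, 195, 40.9 and 207 CPM in *Tspan2* peg/peg. The genotypes overlapped in both experiments, and the log2 fold changes were -0.20 (SE 0.51) and -0.52 (SE 0.60). *Pdk4* was thus below 0 in both experiments, and its standard error was the largest of the 10 in PE2. The HDR value was 0.29 without WT library 6.

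*Depp1* (chr6:116650609-116652794, + strand), a FoxO target that acts in autophagy and is induced by fasting, had the largest gap between its PE2 and HDR genotype differences. In PE2 WT it measured 7.80, 9.54, 10.8 and 11 CPM, and in *Tspan2* peg/peg 23.9, 35.9, 15.9 and 16.6 CPM. Every *Tspan2* peg/peg library lay above every WT library, with a log2 fold change of 1.24 (SE 0.27), a 2.36-fold difference. In HDR WT it measured 6.08, 3.78, 3.00, 7.44 and 31.7 CPM, and in *Tspan2* sg/sg 5.95, 2.75, 8.94, 3.65 and 6.23 CPM. The HDR log2 fold change of -0.93 (SE 0.60) turned to 0.11 without WT library 6, which alone exceeded every other HDR library. The HDR difference was lower than the PE2 difference by 2.13 on the log2 scale (SE 0.77) for *Depp1*, and *Tsc22d3* followed with a difference of -1.58 (SE 0.51). No gene of 18094, members included, was called in this contrast by edgeR (background 0%), with 929 at an unadjusted p under 0.05 and 12 called by DESeq2, none of them a member.

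*Cdkn1a* (chr17:29090976-29100727, + strand) encodes the cell cycle inhibitor p21, a target of p53 that glucocorticoids and FoxO factors also induce. It measured 11.8, 12.2, 10.1, 18.5 and 44.2 CPM in HDR WT and 12.3, 10.9, 10.8, 16.1 and 35.3 CPM in *Tspan2* sg/sg. In each HDR genotype the library numbered 6 was well above the other 4. In PE2 it measured 61.5, 49.5, 33.7 and 37.4 CPM in WT and 67.5, 89.2, 44.0 and 34.1 CPM in *Tspan2* peg/peg. The log2 fold changes were -0.18 (SE 0.45) in HDR and 0.37 (SE 0.32) in PE2. The HDR value turned to 0.38 without WT library 6, and the PE2 value was 0.09 without *Tspan2* peg/peg library 2. The gene AC167363.2 overlaps 273 exon bases of *Cdkn1a* on the other strand, and 7.05% of the 75-base windows of its transcripts also occur in other genes.

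**Figure D2:**
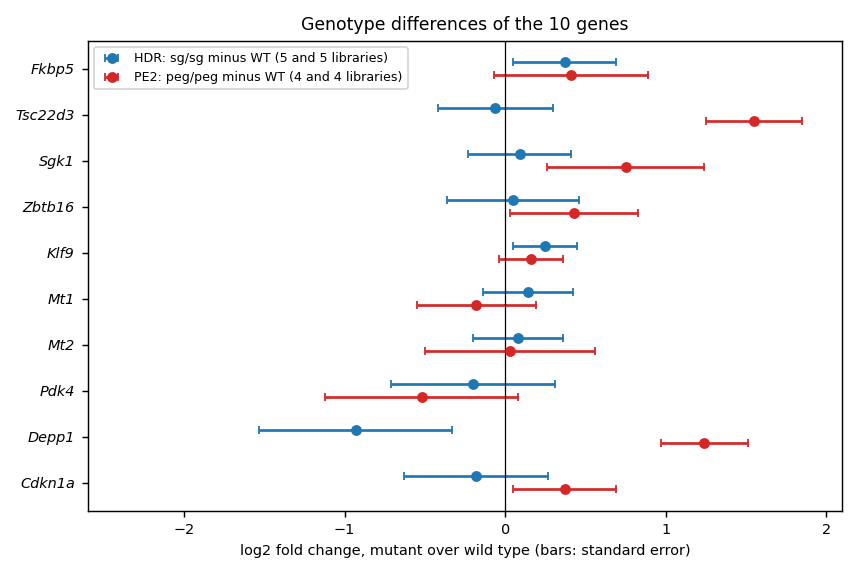
Log2 fold change of mutant over WT for each of the 10 genes (points) with its standard error (bars) in HDR (5 against 5 libraries, blue) and PE2 (4 against 4, red). *Tsc22d3* at 1.55 and *Depp1* at 1.24 in PE2 lie farthest above 0, and *Depp1* at -0.93 in HDR lies farthest below.

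Levels also differed between the experiments, here on a scale computed over all 18 libraries together. *Zbtb16* averaged 140 ± 61.8 CPM in 10 HDR and 16.2 ± 7.18 CPM in 8 PE2 libraries, 8.67-fold higher in HDR, and *Fkbp5* averaged 49.5 ± 19.5 and 11.6 ± 5.67 CPM, 4.26-fold higher. For these 2 of 10 members every HDR library lay above every PE2 library, as it did for 20.5% of all genes, so this share was at the background. For 0 members every HDR library lay below every PE2 library (background 12.8%). *Klf9* was 1.94-fold and *Tsc22d3* 1.67-fold higher in HDR on average, and *Cdkn1a* was 2.84-fold and *Depp1* 2.05-fold higher in PE2, with overlapping ranges. *Sgk1*, *Mt1*, *Mt2* and *Pdk4* had mean ratios of HDR to PE2 between 0.976 and 1.17. The 5 glucocorticoid targets therefore did not share 1 ratio between the experiments. *Nr3c1*, the receptor gene, measured 309 ± 38.3 CPM in HDR WT and 167 ± 6.33 CPM in PE2 WT, each on its own scale. Summed smooth muscle markers had group medians of 25360 and 25520 CPM in HDR and 37540 and 45740 CPM in PE2, and fibroblast markers 3863 to 4707 and 7048 to 10290 CPM. The part of tissue makeup in these ratios was not tested, and in bulk tissue fewer cells of a type and less RNA per cell cannot be told apart.

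The members were also ordered per kilobase of annotated exon, and this order holds for these lengths only. For *Mt1* the exon length is 1246 bases, which fill its whole locus. Any intron is then counted as exon, and its level may be understated. Of the 588 exon bases of *Mt2*, 432 are overlapped on the other strand, and reads there may not have been counted. In HDR WT the order was led by *Klf9* at 57.0 ± 12.3 CPM per kb, *Pdk4* at 46.7 ± 37.8 and *Mt1* at 45.2 ± 19.0. On these lengths, their levels did not differ beyond their spread. *Fkbp5* at 4.56 ± 1.5 and *Cdkn1a* at 5.44 ± 4.01 CPM per kb were the lowest. In PE2 WT *Pdk4* (53.1 ± 27.1) and *Mt1* (44.5 ± 6.53 CPM per kb) led, and *Fkbp5* (1.07 ± 0.565) and *Zbtb16* (2.62 ± 0.837 CPM per kb) were the lowest. On these lengths *Mt1* stood above *Mt2* in both, at 25.1 ± 12.4 in HDR WT and 26.3 ± 9.96 CPM per kb in PE2 WT for *Mt2*. The part of exon length and overlap in this difference was not tested.

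Much of the variation of these genes lay between aortae of the same genotype, and it was shared by some members and not by others. With each group mean subtracted, 36 of 45 pairs of members had a Pearson r above 0 over 18 libraries, 16 had r of at least 0.5, and 11 reached 0.5 in each experiment alone. Most of these 11 did not keep 0.5 in PE2 when 1 library was left out. The lowest PE2 value was then -0.47 for *Sgk1* with *Pdk4*, -0.10 for *Tsc22d3* with *Depp1* and 0.045 for *Depp1* with *Cdkn1a*. Only *Mt1* with *Mt2* (0.807) and *Mt2* with *Pdk4* (0.526) stayed above it. These libraries share depth scaling and tissue makeup, so r describes how the genes moved together and carries no test. The median r was 0.36, and it ran from 0.305 to 0.478 with 1 library left out at a time.

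*Sgk1*, *Mt1* and *Mt2* varied together, with *Pdk4* beside them. *Mt1* and *Mt2* had r = 0.901 (rho = 0.841; HDR 0.832, n = 10; PE2 0.969, n = 8), and r was 0.793 without the 2 libraries farthest from the median. *Sgk1* and *Mt1* had r = 0.879 (rho = 0.810; HDR 0.864; PE2 0.897), and in PE2 that value became -0.05 without *Tspan2* peg/peg library 3, so in PE2 it rested on that library. *Mt1* and *Pdk4* had r = 0.675 (rho = 0.682; without the 2 farthest libraries 0.516). For scale, 13.9% of 14760 other genes had r of at least 0.5 with *Mt1* and 16.6% with *Sgk1*.

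*Zbtb16* varied together with *Fkbp5* and with *Klf9*, and *Fkbp5* with *Tsc22d3*. *Fkbp5* and *Zbtb16* had r = 0.742 (rho = 0.556; HDR 0.903; PE2 0.563), and r was 0.65 without the 2 farthest libraries. *Zbtb16* and *Klf9* had r = 0.731 (rho = 0.738; HDR 0.803; PE2 0.589), and *Fkbp5* and *Tsc22d3* had r = 0.671 (rho = 0.540). *Fkbp5* and *Klf9* had r = 0.362 (rho = 0.263; HDR 0.786; PE2 -0.17), so these genes did not all move together in PE2. Fewer genes reached 0.5 with these members, 4.57% with *Fkbp5*, 4.91% with *Zbtb16* and 2.13% with *Tsc22d3*. *Fkbp5* and *Sgk1*, both receptor targets, had r = -0.12 (rho = -0.09). *Depp1* and *Cdkn1a* had r = 0.668 (rho = 0.536), which fell to 0.379 without HDR WT library 6. *Klf9* and *Cdkn1a* had the lowest r of any pair, -0.54 (rho = -0.72).

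**Figure D3:**
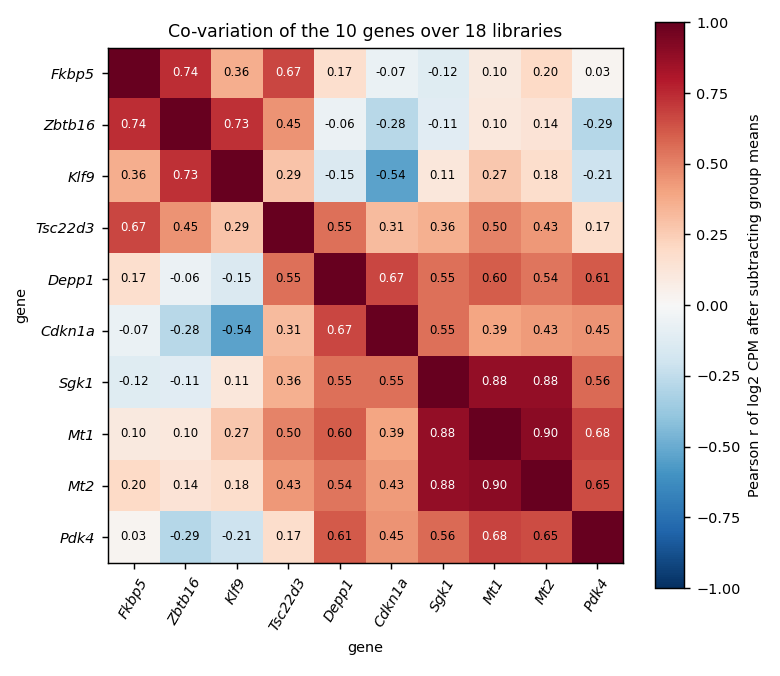
Pearson r between members over 18 libraries, from log2 CPM with the mean of each of the 4 groups subtracted (red positive, blue negative, number in each cell). *Sgk1*, *Mt1* and *Mt2* form a block with r from 0.877 to 0.901, and *Klf9* with *Cdkn1a* is the lowest cell at -0.54.

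*Pdk4* and the metallothionein genes moved with markers of fat cells, and *Sgk1* did so mainly through *Tspan2* peg/peg library 3. With group means subtracted, *Pdk4* had r = 0.854 with the summed white fat markers (rho = 0.777; HDR 0.788; PE2 0.937), and r was 0.823 without *Tspan2* peg/peg library 3. Its WT libraries with the most white fat, HDR library 6 at 8761 CPM and PE2 library 1 at 6777 CPM, were those with the most *Pdk4* in their groups. The same held for *Tspan2* sg/sg library 4, at 4316 CPM of white fat markers and 244 CPM of *Pdk4*. It did not hold in *Tspan2* peg/peg. There library 2 had the most white fat (3981 CPM, *Pdk4* 195 CPM) and library 4 the most *Pdk4* (207 CPM, white fat 2999 CPM). *Mt1* had r = 0.798 with brown fat markers (rho = 0.666), *Mt2* 0.831 (rho = 0.686) and *Sgk1* 0.760 (rho = 0.612). Without library 3 these fell to 0.563, 0.485 and 0.256. In PE2 the r with endothelial markers was also high, at 0.765 for *Mt1*, 0.849 for *Mt2* and 0.882 for *Sgk1*. With brown fat markers it was 0.917, 0.900 and 0.862. Over all libraries but library 3 the endothelial values were -0.06, 0.11 and -0.21. *Sgk1* had r = -0.81 with skeletal muscle markers, -0.52 without library 3, and *Klf9* r = -0.79 with fibroblast markers (rho = -0.81). The part of tissue makeup in the levels of these genes was not tested.

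*Tsc22d3* had r = 0.379 with white and 0.212 with brown fat markers, -0.50 with smooth muscle markers (PE2 -0.64) and 0.439 with endothelial markers (PE2 0.570). *Depp1* had r = 0.766 with endothelial markers in PE2 and 0.197 over 18 libraries. Endothelial marker sums were 1331 to 2088 CPM in PE2 WT and 541 to 2902 CPM in *Tspan2* peg/peg, and 0 of the 6 endothelial markers had a PE2 log2 fold change above 0 (median -0.24). Beside its genotype difference in PE2, white fat sums were 1568 to 6777 CPM in WT and 1074 to 3981 CPM in *Tspan2* peg/peg, with medians of 4083 and 2754 CPM. In PE2, 1 of 8 white and 1 of 7 brown fat markers had a log2 fold change above 0, with medians of -0.55 and -0.83, and none was called by edgeR. In HDR these were 0 of 8 and 0 of 7, with medians of -0.66 and -0.44. In PE2, all 7 of the cardiac muscle markers tested were above 0 (median 2.58), and 6 of 6 fibroblast markers (median 0.71), again with none called by edgeR (4 and 0 at an unadjusted p under 0.05). In HDR, 1 of 6 cardiac muscle markers (median -0.62) and 1 of 6 fibroblast markers (median -0.17) were above 0. Of the skeletal muscle markers, 8 of 10 were above 0 in HDR (median 1.25) and 6 of 9 in PE2 (median 0.97), with 0 called by edgeR. In HDR, 6 of them were higher at an unadjusted p under 0.05 (background 0.353%). There, 3 had every mutant above every WT library (background 0.122%), and DESeq2 called 2 (background 0.00933%). Without *Tspan2* peg/peg library 3 the PE2 log2 fold change of *Tsc22d3* was 1.58 and that of *Depp1* 1.37.

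**Figure D4:**
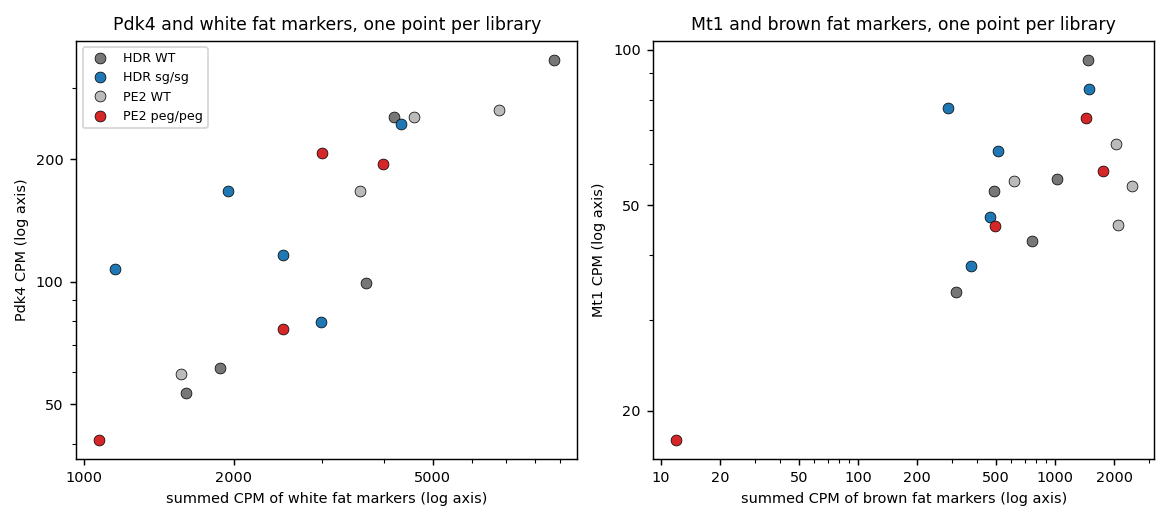
*Pdk4* CPM against the summed CPM of 8 white fat markers (left) and *Mt1* CPM against that of 7 brown fat markers (right), log axes, 1 point per library coloured by group. *Pdk4* follows white fat over the whole range, and the *Mt1* relation has 1 far point, PE2 peg/peg library 3 at 11.9 and 17.6 CPM.

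Other genes of the same pathways were read from lists that hold no member. These lists were also chosen with earlier results of these data known. Their counts and p-values are therefore descriptions and not independent tests. Of 20 other glucocorticoid targets, 19 were tested in each experiment and 0 were called by edgeR in either (smallest adjusted p = 0.782 in PE2 and 1 in HDR). In PE2, 17 of 19 had a log2 fold change above 0 with a median of 0.66 (all genes 0.01), 6 were higher and 0 lower at an unadjusted p under 0.05 (background 3.04% and 1.27%), and 3 had every *Tspan2* peg/peg above every WT library (background 1.43%). In HDR, 9 of 19 were above 0 with a median of 0.00, and 0 were higher and 1 lower at that p. The PE2 count of 6 ran from 4 to 8 with 1 library left out, and the PE2 median from 0.54 to 0.66. The background share moved too, from 1.02% without WT library 2 (count 4) to 5.77% without *Tspan2* peg/peg library 4 (count 8). In the contrast between the experiments 0 of these 19 were called (3 at an unadjusted p under 0.05, smallest adjusted p = 0.911).

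*Cebpd*, a transcription factor of fat and inflammation induced by glucocorticoids, measured 14.6 ± 1.90 CPM in PE2 WT and 27.9 ± 4.47 CPM in *Tspan2* peg/peg, without overlap (13.0 to 17.3 against 21.2 to 31.1 CPM). Its log2 fold change was 0.94 (SE 0.15), with an edgeR adjusted p = 0.782 and a DESeq2 adjusted p = 0.000539. *Per1*, a clock gene with a strong receptor site, measured 18.6 ± 9.21 and 52.5 ± 17.1 CPM, with overlap (12.1 to 31.9 against 27.8 to 67.0 CPM). Its log2 fold change was 1.5 (SE 0.38), with an edgeR adjusted p = 0.861. *Nfkbia*, the inhibitor of NF-kappaB, measured 41.8 ± 6.5 and 61.9 ± 9.96 CPM, without overlap (34.2 to 49.0 against 52.8 to 75.3 CPM). Its log2 fold change was 0.56 (SE 0.15), with an edgeR adjusted p = 0.861. In HDR the 3 had log2 fold changes of -0.05 (SE 0.40), 0.25 (SE 0.50) and 0.07 (SE 0.18). *Arl4d*, named after its values were seen, was the remaining gene of the list without overlap, beside *Cebpd* and *Nfkbia*, at 12.2 ± 1.05 and 24.1 ± 10.3 CPM in PE2.

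**Figure D5:**
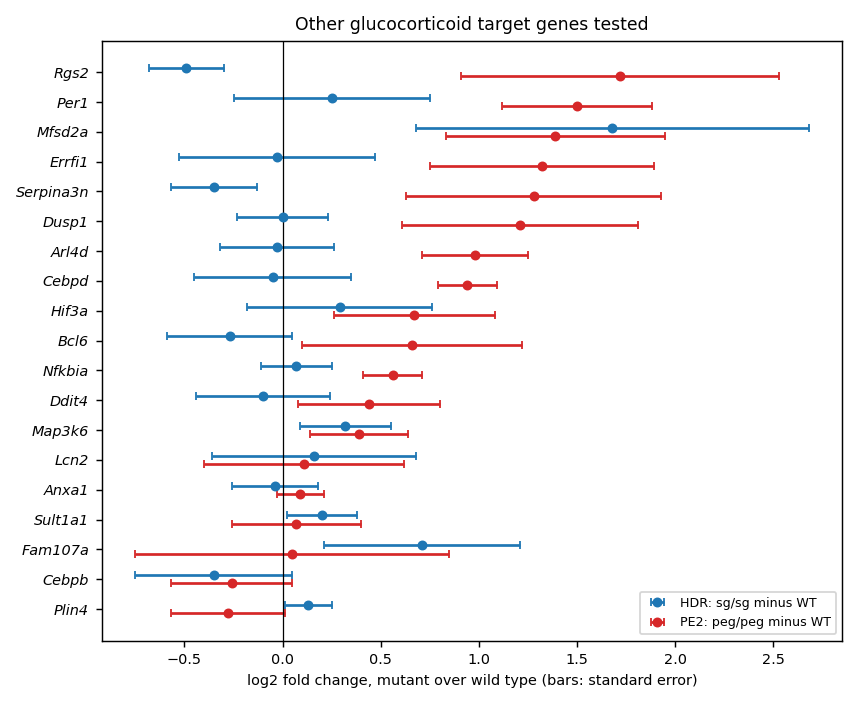
Log2 fold change of mutant over WT (points) with its standard error (bars) for the 19 other glucocorticoid targets tested, sorted by the PE2 value, in HDR (blue) and PE2 (red). In PE2, 17 of 19 lie above 0, and in HDR 9 of 19, with medians of 0.66 and 0.00.

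*Nr3c1* had log2 fold changes of -0.01 (SE 0.12) in HDR and 0.01 (SE 0.11) in PE2. In PE2, 10 of 11 genes of this list were above 0 but with a median of 0.12, and 0 were called by edgeR (1 at an unadjusted p under 0.05) or by DESeq2. *Ncoa2*, a coactivator of the receptor, measured 36.6 ± 3.58 and 45.3 ± 3.71 CPM (log2 fold change 0.31, SE 0.10, edgeR adjusted p = 0.861), and *Ncoa1* 35.0 ± 1.58 and 38.8 ± 1.51 CPM (0.15, SE 0.07). *Hsd11b1*, the enzyme that regenerates active glucocorticoid inside cells, had a log2 fold change of 0.94 (SE 0.53) with overlapping groups.

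The fasting list beside *Pdk4* and *Depp1* showed no common direction. In PE2, 12 of 24 genes tested were above 0 with a median of -0.03, with 1 higher and 1 lower at an unadjusted p under 0.05, and 0 called by edgeR or DESeq2. *Irs2*, the insulin receptor substrate that FoxO induces when insulin is low, measured 17.9 ± 7.81 and 42.1 ± 16.0 CPM, with a log2 fold change of 1.23 (SE 0.37) and an edgeR adjusted p = 0.861. *Acot2*, a mitochondrial thioesterase of fatty acid oxidation, had -0.50 (SE 0.21), and *Cited2*, a CBP-binding transcriptional regulator, 0.72 (SE 0.35). In HDR these were 0.07, 0.17 and 0.01. In HDR, 17 of 24 genes of the list were above 0 with a median of 0.09.

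Genes of zinc handling, beside the metallothioneins, had a median of -0.08 in PE2 (5 of 12 above 0) and -0.01 in HDR (5 of 11). *Mtf1*, the factor that binds the metal response element, measured 18.2 ± 0.988 and 20.8 ± 1.30 CPM in PE2, a log2 fold change of 0.19 (SE 0.09). The zinc exporter *Slc30a1* had -0.24 (SE 0.13) and the zinc transporter *Slc39a7* -0.27 (SE 0.16), and 0 of the list were called by edgeR or DESeq2, or passed an unadjusted p under 0.05. Of the p53 targets that share regulation with *Cdkn1a*, 12 of 18 were above 0 in PE2 (median 0.20) and 7 of 16 in HDR (median -0.05), and 0 were called by edgeR, with 2 at an unadjusted p under 0.05 in PE2 and 0 in HDR. *Btg2*, an antiproliferative gene, measured 69.4 ± 9.65 and 162 ± 53.1 CPM in PE2 with a log2 fold change of 1.22 (SE 0.24), an edgeR adjusted p = 0.861 and a DESeq2 adjusted p = 0.00781. *Mdm2*, the ubiquitin ligase that degrades p53, had 0.24 (SE 0.09), and *Pmaip1*, a cell death gene at 0.317 ± 0.131 and 0.884 ± 0.849 CPM, 1.48 (SE 0.65).

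The circadian clock list was included because blood glucocorticoid follows the clock. In PE2, 5 of 16 clock genes of this list, which leaves *Per1* to the glucocorticoid targets, were above 0 with a median of -0.21, and in HDR 11 of 16 with a median of 0.07, with 0 called by edgeR or DESeq2 and 0 at an unadjusted p under 0.05 in either. Among those with the smallest PE2 p-values, the log2 fold changes were 0.23 (SE 0.17) for *Clock* and -0.23 (SE 0.28) for *Cry2*, core factors of the clock. *Clock* ran from 94.2 to 222 CPM among HDR WT and from 77.6 to 118 CPM among PE2 WT libraries.

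The 8 genes outside the list whose levels followed the mean profile of the members most closely, over 18 libraries and among 13877 genes, were *Plekhf1* (r = 0.853), *Klf2* (0.843), *Snrk* (0.826), *Adamts1* (0.795), *Tex2* (0.782), *Trappc10* (0.781), *Znfx1* (0.776) and *Adamtsl2* (0.760). They were taken as the highest of all, so these values are a description. Here levels were centred within each experiment and not within each group, so genotype differences remained in the profile and in these r values. Each kept r of at least 0.697 within HDR and 0.793 within PE2. *Klf2* and *Adamts1* had PE2 log2 fold changes of 0.96 and 0.97, and the other 6 ranged from -0.02 to 0.30. The mean profile itself was highest in *Tspan2* peg/peg library 2, HDR WT library 6 and *Tspan2* sg/sg library 4, and lowest in *Tspan2* sg/sg library 5 and *Tspan2* peg/peg library 3, so high and low libraries occurred within single genotypes.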

How the data were processed

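Polyadenylated RNA of 18 individual mouse aortae was sequenced, in 4 groups. The authors trimmed reads with fastp, aligned them with STAR 2.7.0f to GRCm38 with Gencode M22, and deposited raw counts per gene symbol from featureCounts (Subread 1.6.4), 1 table per experiment. The deposited tables of normalized values were not used, and the number of unused columns among the count tables was 0. The labels and the methods differ on library kit and read length, and the strand setting is not given in the sources used here. The HDR columns carry numbers that match no label, so they were placed by genotype only and carry no sex.

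The members and all gene lists were chosen with earlier results of these data known. Raw counts were fitted in each experiment with edgeR 4.0.16 in R 4.3.3 (TMM, filterByExpr, glmQLFit, glmQLFTest on genotype), with Benjamini-Hochberg adjustment over 16423 HDR and 16401 PE2 genes and a threshold of 0.05. The contrast between experiments used all 18 libraries. DESeq2 1.42.0, limma 3.58.1 (voom), other filters and scalings, robust dispersions, a replicate block, sex, the female libraries and leaving out each library were alternatives. CPM levels are TMM-normalized. Correlations used log2 CPM with a prior count of 0.5. The fits were tested on simulated counts with the same fixed dispersion for every gene. That dispersion was not taken from these libraries, so the test does not show how often real differences here would be called. Python 3.11.15, numpy 2.4.6, pandas 2.3.3 and scipy 1.17.1 served for summaries. Loci and exon lengths came from Gencode M21, 1 release before that of the authors. Depth of 17290992 to 44895615 counts per library gave each member at least 57 counts in every library. No pair of libraries of a group was a duplicate by a chi-square test of counts. Named genes were the members, *Tspan2*, *Nr3c1*, the 3 genes of each other list with the smallest PE2 p where fewer than 3 were called, and the 8 genes most like the member profile. The result of 1 gene that this rule names is not reported here. Libraries far from their group were sought with Dixon's ratio (critical values 0.829 for 4 and 0.710 for 5 libraries).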

Additional observations from a re-analysis of the deposited data

Results flagged for a closer look

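In 44 groups of 4 or 5 libraries, 5 single values of the members or *Tspan2* lay far from the rest of their group by Dixon's ratio. Its critical values flag about 1 in 20 groups where values are normal and groups independent. The ratio was taken on CPM without a log, and the members vary together, so that rate need not hold here. In HDR WT library 6, *Mt2* was at 27.6 CPM, *Depp1* at 31.7 CPM and *Cdkn1a* at 44.2 CPM, each far above the other 4 WT libraries. *Cdkn1a* was at 35.3 CPM in *Tspan2* sg/sg library 6, far above its group, and *Zbtb16* was at 45.6 CPM in *Tspan2* sg/sg library 5, far below its group. HDR WT library 6 also had the highest white fat marker sum of all libraries, whose part in these values was not tested.

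The genotype difference of *Depp1* in HDR and that in PE2 differed by a log2 value of -2.13 (HDR minus PE2). It was listed because every *Tspan2* sg/sg library was below the HDR WT mean and every *Tspan2* peg/peg library above the PE2 WT mean. The HDR WT mean was set by WT library 6, and the other 4 WT libraries (3.00 to 7.44 CPM) also lay below it. The difference was not tested, since *Depp1* was chosen from these contrasts, and the HDR side turned to 0.11 without WT library 6.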

How the results depend on the processing

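Under alternatives the members kept 0 calls by edgeR in both experiments. DESeq2 called 2 members, 2 genes of the other lists and 33 genes in all in PE2, 4 genes in HDR and 12 in the contrast between experiments. Without the low-count filter HDR had 4 calls. In PE2, 0 genes were called with the replicate block, with sex as a covariate or in the female libraries alone, and *Tspan2* had log2 fold changes of -3.50 (adjusted p = 0.295), -3.52 (0.131) and -3.53 (0.128) under these edgeR fits. With 1 library left out, PE2 calls ranged from 0 to 2, calls in the contrast between experiments from 0 to 4, and the PE2 log2 fold change of *Tspan2* from -3.60 to -3.28, with adjusted p up to 0.224. PE2 libraries with the same number did not deviate together (r = 0.048, -0.24, -0.06 and -0.30), so the numbers do not pair them. In HDR alone, no paired analysis was possible because the columns carry no label numbers. The PE2 median of members ran from 0.08 to 0.46 and the HDR median from -0.03 to 0.33 with 1 library left out. The log2 fold changes of single members moved by less than the spread between libraries in all 330 comparisons with an alternative. Leaving out 1 library can hardly move a value by more than that spread, so this count is no measure of stability. The HDR value of *Depp1*, which went from -0.93 to 0.11 without WT library 6, was among them. Over these settings 8 members in HDR and 3 in PE2 took both signs. The lowest count of a member in a library was 57, and what limited the calls was not tested.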
